A study of Homo sapiens with 6 samples.

Results

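How the LZTFL1 vector went with the TGFβ response of HCC95 cells was measured as a difference of differences, gene by gene, over 4 of the 6 arrays of the study. HCC95 is an established human line from a squamous cell lung cancer. The LZTFL1 vector was pSIn-E2F-LZTFL1-ires-GFP-puro, in which LZTFL1 and GFP share a transcript, and the control vector was pSin-E2F-GFP-puro, so that all 4 groups carry GFP. One array each held LZTFL1 cells with TGFβ, LZTFL1 cells untreated, GFP cells with TGFβ and GFP cells untreated. The labels give neither the dose and duration of TGFβ nor whether the transfected cells were a clone or a mixed population. The other 2 arrays, from the H460 line, entered the normalization and nothing else.

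The value of a gene is the TGFβ-labelled minus the untreated array in LZTFL1-labelled cells, minus the same difference in GFP cells, on a normalized log2 scale. A positive value means that the TGFβ-labelled array stood higher above its untreated partner in LZTFL1-labelled cells than in GFP cells, and it equals the vector difference with TGFβ minus the vector difference without it. Of 47323 probes, 13025 were detected at p under 0.01 on all 4 arrays. They gave 10811 features with 1 probe per gene, of which 8498 had a gene name and 2313 were probes without one. With 1 array per group there was no replicate and 0 residual degrees of freedom, so no p-value could be attached to any difference. Genes are described as past 1 when the value was at 1 or more in size, which is 2-fold.

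TGF-β binds a pair of receptor kinases that phosphorylate SMAD proteins, which enter the nucleus and switch on targets such as SMAD7, PMEPA1 and CCN2. It slows the division of many epithelial cells and can loosen their junctions. NF-κB, a separate family of transcription factors, drives cytokine genes such as CXCL8, IL1A and LTB. LZTFL1 is a leucine zipper protein that controls the entry of the BBSome, a carrier of membrane proteins, into the cilium.

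The labels were set against the genes that should follow them. The only LZTFL1 probe had log2 values of 5.07 with LZTFL1 and TGFβ, 5.07 with LZTFL1, 5.40 with GFP and TGFβ and 5.75 with GFP, and it was detected on the untreated GFP array alone. It was thus not raised on the arrays labelled LZTFL1. Whether it lies in the part of LZTFL1 that the vector carries is not known here. PMEPA1 and SMAD7, which TGF-β induces in most cells, were lower on the TGFβ-labelled array with either vector (PMEPA1 with a difference of -3.32 with LZTFL1 and -2.22 with GFP, SMAD7 with one of -0.81 with LZTFL1 and -0.60 with GFP). These genes thus went against the labels. The other targets, given below, did not all do so. CCN2 was higher with the TGFβ label in GFP cells and slightly lower in LZTFL1-labelled cells, and ID1 was higher with either vector. Among targets left out by the detection filter, SKIL, TGFBI, ID2 and COL1A1 were detected on both untreated arrays and on neither TGFβ-labelled one. SKIL read 5.40 with TGFβ and 6.38 untreated in LZTFL1-labelled cells, and 5.56 with TGFβ and 6.58 untreated in GFP cells. The TGFβ-labelled arrays had fewer detected probes of any kind, as given below. Over the 22 measured targets the median difference was -0.33 with LZTFL1 and -0.22 with GFP. The arrays are named by their labels throughout, and the sign of every difference of differences rests on them. Of 9 markers of a squamous line, 6 were measured and all 6 were above 8 on every array, among them the keratin KRT5 at 12.94 to 13.04 and SOX2 at 10.40 to 10.93. KRT6A, KRT17 and TP63 had no listed probe. Of 14 markers of fibroblasts, endothelium and white blood cells, 2 were detected on all 4 arrays, THY1 and VWF, and both were higher on the TGFβ-labelled arrays. VWF was at 7.41 and 5.59 in LZTFL1-labelled cells with and without TGFβ, and at 7.14 and 5.76 in GFP cells. PDGFRA, PDGFRB, DCN, LUM, PECAM1, CDH5, KDR, PTPRC, CD3E, CD14 and LYZ were not detected on any array. The part of such cells in the values below was not tested.

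The difference of differences was small beside the other contrasts of the same 4 arrays. Its SD over 10811 features was 0.364, against 0.617 for the sum of the 2 TGFβ-label differences and 0.622 for the sum of the 2 vector differences, which weigh the same 4 arrays equally. It was at 1 or more for 69 features (0.638% of all) and at -1 or less for 60 (0.555%), or 129 in all (1.19%), against 969 (8.96%) and 1028 (9.51%) past 1 in the sums. The lowest value was -1.52 and the highest 2.11. Values ran through the threshold without a gap. Of the named genes, ZNF669 at 1.009 and NOTCH2NLA at -1.001 lay just inside it, and MBNL2 at 0.997 and PXYLP1 at -0.998 just outside. When arrays were scaled by their medians instead of by quantiles, the median of all genes came to 0.24 instead of 0.01 and the split became 242 higher and 20 lower. Counted from that shifted median it was 64 and 74, so values here are read relative to the median of all genes. Across genes the value correlated with the summed TGFβ-label difference with r = 0.156 and with the summed vector difference with r = 0.0103, which describes these 4 arrays, since the contrasts share them.

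**Figure D1:**
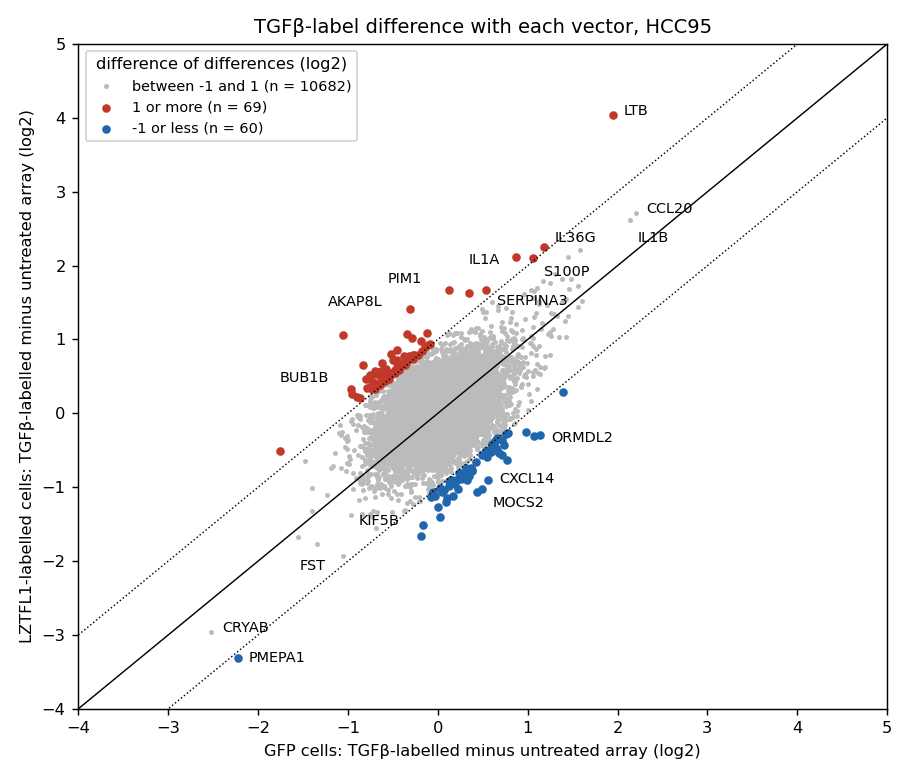
Each point is 1 of 10811 features, with the TGFβ-label difference of GFP cells on the x axis and that of LZTFL1-labelled cells on the y axis, both in log2 units. The solid line marks equal differences and the dotted lines a difference of differences of 1 and -1. LTB, the named gene farthest above the line, is at 4.03 with LZTFL1 and 1.94 with GFP, while most coloured points lie near the centre, where the 2 differences have opposite signs.

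Most values past 1 belonged to genes whose TGFβ-label difference was within 1 with both vectors. In LZTFL1-labelled cells the TGFβ-label difference was at 1 or more for 108 features (0.999%) and at -1 or less for 68 (0.629%). In GFP cells it was at 1 or more for 69 (0.638%) and at -1 or less for 27 (0.25%). Of the 129 features past 1 in the difference of differences, 96 had both TGFβ-label differences within 1, and 114 (88.4%) had differences of opposite sign, against 35.4% of all features. Among the 69 higher ones, the TGFβ-labelled LZTFL1 array was the highest of the 4 for 37 and the untreated LZTFL1 array the lowest for 37. Among the 60 lower ones, the TGFβ-labelled LZTFL1 array was the lowest for 40 and the untreated LZTFL1 array the highest for 33. Taking differences past 1 requires such extremes, so these counts say where the values came from and support nothing further.

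The genes at 1 or more with TGFβ under both vectors and also at 1 or more in the difference of differences were LTB, IL36G and S100P. LTB encodes lymphotoxin beta, a membrane cytokine of the tumour necrosis factor family. Its values were 9.54 with LZTFL1 and TGFβ, 5.50 with LZTFL1, 10.10 with GFP and TGFβ and 8.16 with GFP, so that its TGFβ-label difference was 4.03 with LZTFL1 and 1.94 with GFP. The difference of differences, 2.09 or 4.26-fold, was the largest of any named gene. The untreated LZTFL1 array was far below the other 3, near the lowest value detected there (5.33), and with TGFβ the LZTFL1-labelled array was still below the GFP array. Another LTB probe, detected on the TGFβ-labelled arrays and not on the untreated ones, read 6.77 with TGFβ and 4.41 untreated in LZTFL1-labelled cells, and 7.37 with TGFβ and 5.33 untreated in GFP cells, a difference of differences of 0.32. IL36G, an interleukin-1 family cytokine of epithelia, had the same order of arrays as LTB, at 7.99 with TGFβ and 5.74 untreated in LZTFL1-labelled cells, and 8.50 with TGFβ and 7.32 untreated in GFP cells (1.07). S100P, a calcium-binding protein, had 7.95 with LZTFL1 and TGFβ, 5.85 with LZTFL1, 6.45 with GFP and TGFβ and 5.38 with GFP (1.04). For S100P it was the TGFβ-labelled LZTFL1 array that stood above the rest. Its value on the untreated GFP array was at about the lowest value detected on that array (5.38), which limits its GFP difference.

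Another 8 features were at 1 or more with TGFβ in LZTFL1-labelled cells, within 1 in GFP cells and past 1 in the difference of differences, 5 of them named. IL1A, the cytokine interleukin-1 alpha, had 9.50 with LZTFL1 and TGFβ, 7.39 with LZTFL1, 11.01 with GFP and TGFβ and 10.14 with GFP, which gave TGFβ-label differences of 2.11 with LZTFL1 and 0.87 with GFP and a value of 1.24. Like LTB it was lowest on the untreated LZTFL1 array and highest in GFP cells with TGFβ. PIM1, a serine/threonine kinase that promotes survival, had 9.38 with TGFβ and 7.71 untreated in LZTFL1-labelled cells, and 8.62 with TGFβ and 8.50 untreated in GFP cells (1.67 with LZTFL1 and 0.12 with GFP, value 1.55). Its 2 GFP arrays were close together, with the LZTFL1-labelled arrays on either side of them. SERPINA3, a secreted inhibitor of proteases, had 8.44 with TGFβ and 6.77 untreated in LZTFL1-labelled cells, and 6.87 with TGFβ and 6.33 untreated in GFP cells (1.67 with LZTFL1 and 0.54 with GFP, value 1.13), with the TGFβ-labelled LZTFL1 array alone above 7. AKAP8L, a nuclear relative of a kinase anchoring protein, had 7.57 with TGFβ and 6.16 untreated in LZTFL1-labelled cells, and 6.35 with TGFβ and 6.66 untreated in GFP cells (1.41 with LZTFL1 and -0.30 with GFP, value 1.71). HECA, the human relative of the fly gene headcase, had 7.49 with TGFβ and 6.41 untreated in LZTFL1-labelled cells, and 7.21 with TGFβ and 7.55 untreated in GFP cells (1.08 with LZTFL1 and -0.34 with GFP, value 1.42). In HECA the untreated LZTFL1 array stood below 3 others that were close together.

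**Figure D2:**
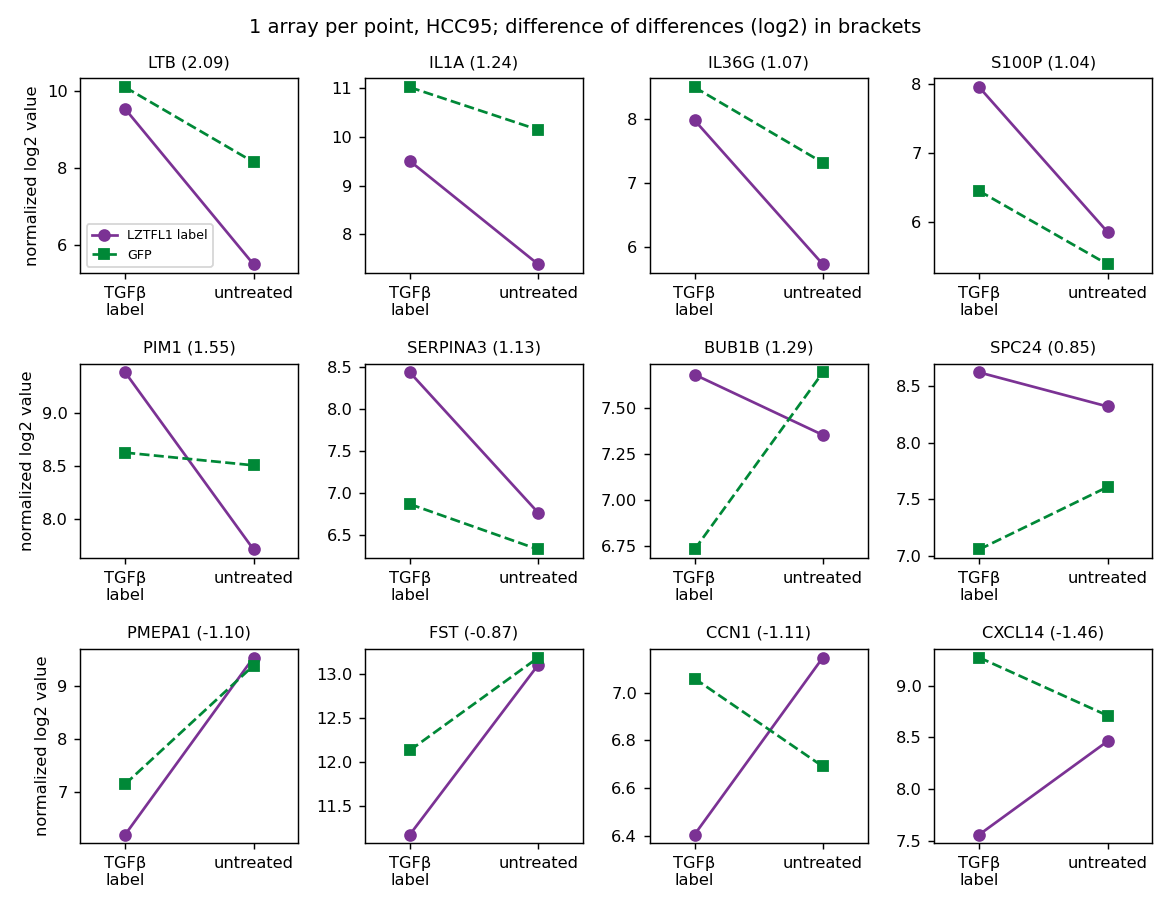
Normalized log2 values of 12 genes on the 4 HCC95 arrays, with TGFβ-labelled arrays on the left and untreated ones on the right, LZTFL1-labelled cells as circles and GFP cells as squares, 1 array per point. The number in brackets is the difference of differences. In LTB, IL1A and IL36G the LZTFL1-labelled array lies far below the GFP array in untreated cells and closer to it with TGFβ, whereas in PMEPA1 and FST the 2 vectors are together in untreated cells and apart with TGFβ.

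Genes of inflammation and NF-κB were mostly on the positive side. Of 36 listed, 15 were measured, and 13 were above 0 and 2 below, with a median of 0.30, against 50.8% above 0 and a median of 0.01 over all features. The list's median was 0.14 with no background correction and 0.19 with the mean over probes. The list's median TGFβ-label difference was 0.89 with LZTFL1 and 0.75 with GFP, and in 11 of the 15 the untreated LZTFL1 array was the lowest of the 4. Genes higher with the TGFβ label under both vectors are lowest on an untreated array. The same count over all features was not made. Over all features the TGFβ-label difference varied more with LZTFL1 (SD 0.382) than with GFP (SD 0.333). Under such a spread, genes higher with the label under both vectors lean to positive values. Its part in this list was not tested. LTB and IL1A were the 2 past 1. Next came CXCL8, the neutrophil chemokine interleukin-8, at 10.51 with LZTFL1 and TGFβ, 8.84 with LZTFL1, 9.93 with GFP and TGFβ and 8.90 with GFP (0.63). Its other passing probe gave -0.35, so the 2 probes of CXCL8 disagreed in sign. CCL20, a chemokine for dendritic cells and lymphocytes, had 9.03 with TGFβ and 6.32 untreated in LZTFL1-labelled cells, and 8.55 with TGFβ and 6.35 untreated in GFP cells (0.51), and IL1B, interleukin-1 beta, had 8.40 with TGFβ and 5.79 untreated in LZTFL1-labelled cells, and 8.78 with TGFβ and 6.65 untreated in GFP cells (0.47). Both were much higher with the TGFβ label under either vector, and the step between the vectors was small beside that.

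The NF-κB factors and their inhibitors differed less. NFKBIZ, an inducible nuclear partner of NF-κB, was at 0.39, TNIP1 at 0.32 and NFKB2, a precursor subunit, at 0.30 (0.85 for its other probe). LCN2, a secreted iron-trapping protein, was at 0.18, TNFAIP3, which dampens the pathway, at 0.16, NFKBIA, the inhibitor that holds NF-κB in the cytoplasm, at 0.14, and RELB and IL6 at 0.11 each. SOD2, a mitochondrial superoxide dismutase, was at -0.02, with 0.15 for its other probe, and NFKB1, another precursor subunit, at -0.38. IL6 therefore had nearly the same TGFβ-label difference with LZTFL1 (1.36) as with GFP (1.26). Among the members left out by the detection filter, CCL2, a chemokine for monocytes, had 6.98 with LZTFL1 and TGFβ and 7.07 with GFP and TGFβ and was detected on neither untreated array. IL1RN, the interleukin-1 receptor antagonist, had 6.69 with TGFβ and 5.16 untreated in LZTFL1-labelled cells, and 6.73 with TGFβ and 5.73 untreated in GFP cells, and was undetected on the untreated LZTFL1 array.

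Promoters of these genes are shown because LTB, the highest of the list, and CXCL8, next after IL1A by its brighter probe, both hold a κB motif in the 300 bases searched, 250 before to 50 after the RefSeq start on GRCh38.p14. The motif was written GGANTTTCC and searched on both strands, and capitals mark the match, which in LTB is that of the opposite strand.

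LTB, chr6:31582376-31582675, minus strand: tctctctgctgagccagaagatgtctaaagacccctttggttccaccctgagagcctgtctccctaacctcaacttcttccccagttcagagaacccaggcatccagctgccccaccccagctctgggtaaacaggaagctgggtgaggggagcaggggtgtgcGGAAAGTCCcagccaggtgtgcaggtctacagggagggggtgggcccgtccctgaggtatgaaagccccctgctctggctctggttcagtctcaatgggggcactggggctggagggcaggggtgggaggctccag

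CXCL8, chr4:73740319-73740618, plus strand: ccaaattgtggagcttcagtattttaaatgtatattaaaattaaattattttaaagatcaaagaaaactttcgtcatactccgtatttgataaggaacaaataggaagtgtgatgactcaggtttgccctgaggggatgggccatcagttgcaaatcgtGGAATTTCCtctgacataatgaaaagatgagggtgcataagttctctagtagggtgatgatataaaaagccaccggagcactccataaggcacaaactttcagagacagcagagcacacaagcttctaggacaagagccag

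IL1A is not among the genes with a match. The match began at -86 in LTB and at -91 in CXCL8, counted from the start site. Of 15 measured members of the list, 14 had a promoter in the table and 7 of those (50%) held the motif: CXCL8, IL6, LTB, TNFAIP3, NFKBIA, NFKBIZ and NFKB1. The share was 1.64% of 27305 promoters and 5% of the 40 promoters found for the 48 named genes at 1 or more, where it stood for 2 genes. IL6 and NFKB1, at 0.11 and -0.38, hold the motif as LTB does. The list was made up of inflammatory and NF-κB genes, so its share says nothing of the difference of differences. A match is a description of the letters in this window and says nothing of binding.

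Targets of TGF-β were mostly on the negative side. Of 40 listed, 22 were measured, with 6 above 0 and 16 below and a median of -0.11 (-0.0709 with detection p under 0.05). The median TGFβ-label difference was -0.33 with LZTFL1 and -0.22 with GFP. The part of the wider spread with LZTFL1, given above, in this list was not tested. PMEPA1, a membrane protein that restrains TGF-β signalling, had 6.21 with LZTFL1 and TGFβ, 9.53 with LZTFL1, 7.16 with GFP and TGFβ and 9.38 with GFP. The 2 untreated arrays were close, and the TGFβ-labelled array was lower by more in LZTFL1-labelled cells, for a value of -1.10. Its other passing probe had 5.79 with TGFβ and 8.35 untreated in LZTFL1-labelled cells, and 6.35 with TGFβ and 8.50 untreated in GFP cells, a value of -0.40. PMEPA1 was also the only feature at -1 or less in both vectors and in the difference of differences.

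FST, which encodes the activin antagonist follistatin, had the same shape. It read 11.17 with LZTFL1 and TGFβ, 13.10 with LZTFL1, 12.13 with GFP and TGFβ and 13.18 with GFP, a value of -0.87, and its other probe had 7.04 with TGFβ and 9.56 untreated in LZTFL1-labelled cells, and 8.24 with TGFβ and 9.56 untreated in GFP cells, a value of -1.19. FST was among the brightest of these genes and its 2 probes went the same way. CCN1, a matrix-associated growth regulator, had 6.41 with TGFβ and 7.15 untreated in LZTFL1-labelled cells, and 7.06 with TGFβ and 6.69 untreated in GFP cells (-1.11), so it was lower with TGFβ in LZTFL1-labelled cells and higher in GFP cells. Its relative CCN2 had 8.11 with TGFβ and 8.23 untreated in LZTFL1-labelled cells, and 8.44 with TGFβ and 7.78 untreated in GFP cells (-0.78), against -0.14 for its other probe. THBS1, thrombospondin 1, had 6.91 with TGFβ and 8.31 untreated in LZTFL1-labelled cells, and 8.41 with TGFβ and 9.14 untreated in GFP cells (-0.67) and was lower with the TGFβ label under both vectors. JUNB was at -0.42 and SMAD7, the inhibitory SMAD, at -0.21.

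The other targets lay between -0.22 and 0.40. PDGFB was at -0.22, VASN at -0.16, and TAGLN and ITGAV at -0.15 each. COL4A1, SMAD6 and TGIF1 were at -0.07, the other TGIF1 probes being at -0.31 and -0.54, COL7A1 was at -0.05 and ID3 at -0.04. Above 0 were BHLHE40 at 0.07, LTBP3 at 0.10, ID1 and BAMBI at 0.12, NEDD9 at 0.34 with both of its probes and COL4A2 at 0.40. ID1, a target of BMP as well as TGF-β signalling, was higher with the TGFβ label by 0.99 with LZTFL1 and 0.86 with GFP, against the direction of most of the list. The SMAD motif CAGAC was in the promoters of 9 of the 19 listed targets with an entry (47.4%), against 45% of all promoters. Of the receptors and SMADs, 10 were measured and 4 were above 0. TGFBR2, the type II receptor, was the farthest at -0.88 (6.11 with TGFβ and 7.24 untreated in LZTFL1-labelled cells, and 6.88 with TGFβ and 7.13 untreated in GFP cells), and its other passing probe was at 0.05. SMAD3 was at 0.44, higher with TGFβ by 0.98 with LZTFL1 and 0.54 with GFP.

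**Figure D3:**
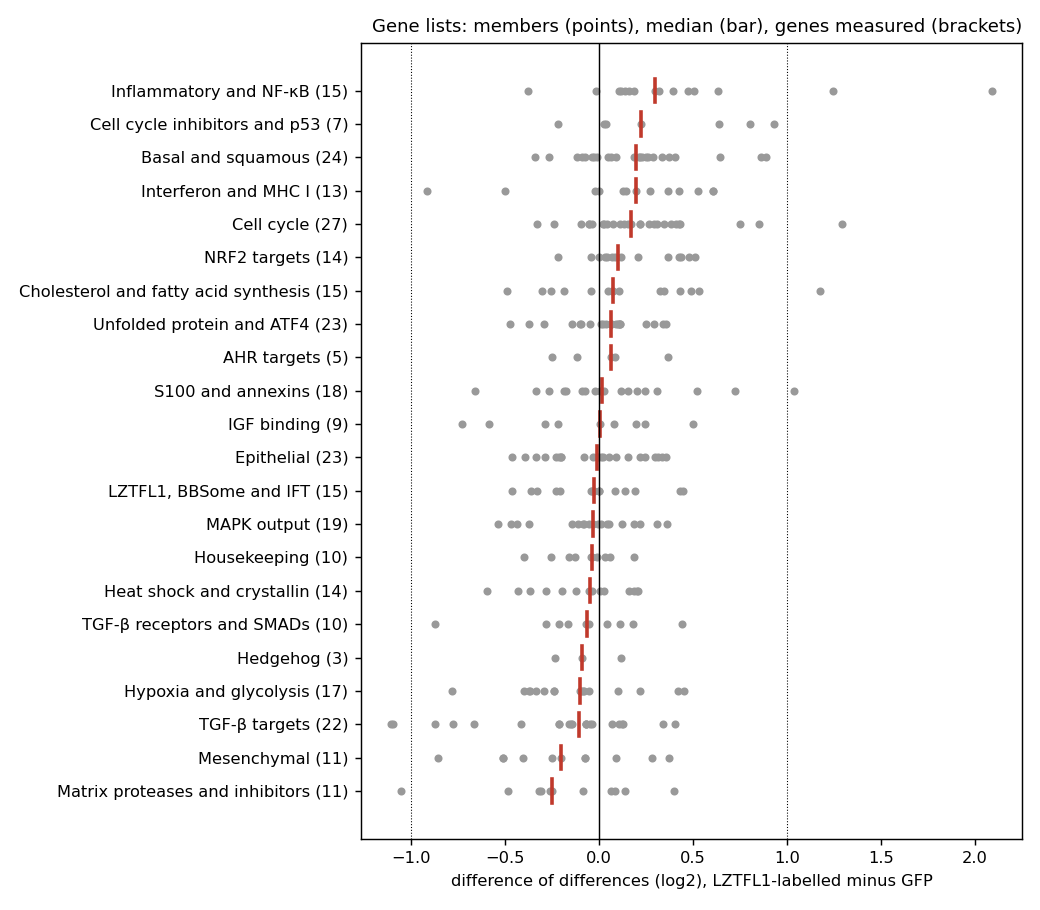
Difference of differences of the measured members of 22 gene lists, in log2 units, each grey point 1 gene and each red bar the list's median, with the number of genes measured in brackets. The dotted lines mark -1 and 1. Medians lie between -0.25 and 0.30, and the members of most lists fall on both sides of 0.

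Genes of cell division were more often above 0 than below. Of 28 listed, 27 were measured, 21 above 0 and 6 below, with a median of 0.17. They were at 0.5 or more in 3 cases (11.1%, against 8.54% of all features), and 1 of these was past 1. Their median TGFβ-label difference was -0.07 with LZTFL1 and -0.37 with GFP, and in 20 of the 27 the TGFβ-labelled GFP array was the lowest of the 4. How often that array was the lowest over all features was not counted. BUB1B, the spindle checkpoint kinase BubR1, had 7.68 with LZTFL1 and TGFβ, 7.35 with LZTFL1, 6.73 with GFP and TGFβ and 7.69 with GFP (1.29). Its relative BUB1 had 8.94 with TGFβ and 8.96 untreated in LZTFL1-labelled cells, and 8.48 with TGFβ and 9.25 untreated in GFP cells (0.75), and the kinetochore subunit SPC24 had 8.62 with TGFβ and 8.32 untreated in LZTFL1-labelled cells, and 7.06 with TGFβ and 7.61 untreated in GFP cells (0.85). In BUB1 and BUB1B it was the TGFβ-labelled GFP array that lay below the other 3. Outside the list, and picked because their values were past 1, so that they add no support to it, CENPQ, a kinetochore subunit, was at 1.28 and HJURP, the chaperone of the centromere histone, at 1.11 (9.26 with TGFβ and 8.89 untreated in LZTFL1-labelled cells, and 8.09 with TGFβ and 8.83 untreated in GFP cells). FOXM1, a transcription factor of mitotic genes picked after its values were seen, was at 0.80 and 1.12 with its 2 probes.

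Most other members were closer to 0. The mitotic kinases AURKA and AURKB were at 0.43 and 0.41, SPC25 at 0.42, the proliferation antigen MKI67 at 0.38, cyclin B2 (CCNB2) at 0.34 and CDC20, an activator of the anaphase complex, at 0.31. Replication genes were on both sides, with MCM5 at 0.29, PCNA at 0.15, MCM2 at 0.02, TYMS at -0.05, RRM2 at -0.10, E2F1 at -0.24 and MCM6 at -0.33. The 3 highest members act in mitosis and the 3 lowest in DNA replication or its onset, while the mitotic genes PLK1 (0.11), CCNB1 (0.04) and BIRC5 (-0.04) lay between. The promoter of BUB1B is shown as that of the member farthest from 0. It holds the cell cycle genes homology region, TTTGAA, in capitals, beginning 23 bases before the start.

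BUB1B, chr15:40160819-40161118, plus strand: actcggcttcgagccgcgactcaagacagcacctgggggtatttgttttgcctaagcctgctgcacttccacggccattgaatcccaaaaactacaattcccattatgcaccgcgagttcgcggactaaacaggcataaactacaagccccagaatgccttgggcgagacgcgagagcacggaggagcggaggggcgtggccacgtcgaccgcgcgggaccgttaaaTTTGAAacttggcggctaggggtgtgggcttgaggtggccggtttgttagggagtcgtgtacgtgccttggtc

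This motif, searched on both strands, was in 9 of the 22 listed promoters with an entry (40.9%), against 15.4% of all promoters and 9.24% of those of the measured genes. The 9 were MKI67, TOP2A, CCNB2, CDK1, PLK1, BUB1B, CDC20, SPC25 and CENPA, whose values ran from 0.07 for CDK1 to 1.29 for BUB1B. The list was made up of cell division genes, so its share says nothing of the difference of differences. Among named genes past 1, the motif was in 6 of 40 promoters at 1 or more (15%) and in 6 of 23 at -1 or less (26.1%). It was thus not particular to genes with positive values. Of 7 measured inhibitors of the cycle and p53 targets, 6 were above 0 (median 0.22). PLK2, a p53-induced kinase, had 6.50 with TGFβ and 6.66 untreated in LZTFL1-labelled cells, and 5.77 with TGFβ and 6.86 untreated in GFP cells (0.93), and GADD45B, a stress-induced gene, had 6.96 with TGFβ and 6.54 untreated in LZTFL1-labelled cells, and 6.17 with TGFβ and 6.56 untreated in GFP cells (0.80). In both the TGFβ-labelled GFP array was the lowest. GDF15, a stress-induced cytokine, was at 0.63 and was higher with TGFβ by 2.21 with LZTFL1 and by 1.58 with GFP. CDKN1A, the inhibitor p21, was at 0.04, with TGFβ-label differences of -0.57 with LZTFL1 and -0.60 with GFP.

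Epithelial genes stayed within 0.5, while mesenchymal and protease genes were more often below 0 than above. Of 23 measured epithelial genes, 11 were above 0 and none was past 0.5 in size, with MAL2 at -0.46 and RAB25 at -0.39 the farthest. Over all features, 8.54% were at 0.5 or more and 7.40% at -0.5 or less. Whether the absence among these 23 genes differs from those shares was not tested. Of 11 mesenchymal genes, 3 were above 0 and 3 were at -0.5 or less (27.3%, against 7.40% of all features). Their median was -0.20, and it was nearer 0 with no background correction (-0.0563), with the mean over probes (-0.0739) and with the brightest probe over 6 arrays (-0.0778). SNAI2, a repressor of epithelial genes, had 9.15 with LZTFL1 and TGFβ, 10.51 with LZTFL1, 10.10 with GFP and TGFβ and 10.94 with GFP (-0.51), and its other probe was at -0.50. TWIST2, a related factor, was at -0.86 and was dimmer, between 5.88 and 6.87. Of 24 basal and squamous genes, 16 were above 0 (median 0.20), led by NGFR, the low-affinity nerve growth factor receptor, at 0.89 and SFN, which encodes 14-3-3 sigma, at 0.86. SFN was bright on all 4 arrays (11.46 with TGFβ and 11.04 untreated in LZTFL1-labelled cells, and 11.38 with TGFβ and 11.82 untreated in GFP cells). Of 11 matrix proteases and inhibitors, 4 were above 0. Their median was -0.25, and with the same 3 alternatives it was -0.13, -0.0819 and -0.0857. The list held the membrane protease ADAM9 at -1.06 (6.99 with TGFβ and 7.73 untreated in LZTFL1-labelled cells, and 8.47 with TGFβ and 8.16 untreated in GFP cells) and TIMP2 at -0.48.

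Of 18 S100 and annexin genes, 10 were above 0 and 8 below (median 0.01). Besides S100P, given above, the farthest from 0 were S100A7 and ANXA8. ANXA8, a membrane-binding annexin, was at -0.66, with 8.43 with TGFβ and 9.09 untreated in LZTFL1-labelled cells, and 9.01 with TGFβ and 9.01 untreated in GFP cells. S100A7, psoriasin, was at 0.72 and S100A8, a subunit of calprotectin, at 0.52, and both were higher with TGFβ under either vector. S100A8 read 12.56 with LZTFL1 and TGFβ, 10.79 with LZTFL1, 12.28 with GFP and TGFβ and 11.03 with GFP. Of 9 IGF-binding genes, 5 were above 0, and IGFBP7 (-0.73) and IGFBP5 (-0.59, and -0.62 with its other probe) were the farthest. IGFBP5 and IGFBP7 are secreted, and IGFBP5 was bright, at 11.31 with TGFβ and 11.43 untreated in LZTFL1-labelled cells, and 11.90 with TGFβ and 11.43 untreated in GFP cells.

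Metabolic and stress genes followed no single direction. Of 17 hypoxia and glycolysis genes, 4 were above 0 (median -0.10, and -0.22 with the mean over probes), with the glycolytic enzymes ALDOA at -0.79 (0.07 for its other probe) and ENO2 at 0.45. Of 15 genes of cholesterol and fatty acid synthesis, 10 were above 0 (median 0.07). CYP51A1, a demethylase of sterol synthesis, had 8.25 with TGFβ and 7.52 untreated in LZTFL1-labelled cells, and 7.40 with TGFβ and 7.85 untreated in GFP cells (1.18) and IDI1, which makes an isoprenoid precursor, was at 0.53. Of 14 NRF2 targets, 11 were above 0 (median 0.10), with AKR1B10, an aldo-keto reductase, at 0.51 and malic enzyme (ME1) at 0.47. Of 13 interferon and antigen presentation genes, 9 were above 0 (median 0.19), while the proteasome subunit PSMB9 was at -0.92 and OAS3, a sensor of double-stranded RNA, at 0.61. Of 23 genes of the unfolded protein response and ATF4, 16 were above 0 (median 0.06), and XBP1 at -0.47 and HSPA5 at -0.37 were the farthest.

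Of 14 heat shock and crystallin genes, 6 were above 0 (median -0.05, and -0.16 with the mean over probes). The chaperonin HSPE1 was at -0.60 and -0.55 with its 2 probes. CRYAB, a small heat shock protein, was lower with the TGFβ label under both vectors (differences of -2.96 with LZTFL1 and -2.52 with GFP, value -0.43). Of 5 measured targets of the aryl hydrocarbon receptor, 3 were above 0 (median 0.06): NQO1 at 0.36, the receptor AHR itself at 0.08 (-0.09 for its other probe) and TIPARP at 0.06, with CYP1B1 at -0.12 and ALDH3A1 at -0.25. CYP1A1 was left out because it was undetected on the untreated LZTFL1 array.

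The BBSome and Hedgehog lists, which are close to LZTFL1's known roles, held no value past 0.5 in size. Of all features, 8.54% were at 0.5 or more and 7.40% at -0.5 or less. With so few genes measured, the absence was not tested against those shares and is not read as a result. This holds for the housekeeping genes below as well. Of 15 measured BBSome and intraflagellar transport genes, 5 were above 0 (median -0.03), with BBS1 at -0.46 and BBS9 at 0.45 the farthest. The 3 measured Hedgehog genes had GLI1 at 0.12 and GLI2 at -0.24 (median -0.09). Of 19 genes of MAPK output, 8 were above 0 (median -0.03), and the early response genes JUN (-0.54) and FOS (-0.47) were the farthest. Of 10 housekeeping genes, 3 were above 0 (median -0.04), none past 0.5, with PGK1 at -0.40 and HPRT1 at -0.26 the farthest. The 6 line markers lay between -0.21 for EPCAM (0.43 for a dimmer EPCAM probe) and 0.06 for DSG3, SOX2 being at -0.09. Of the markers of other cells, THY1 was at -0.56 and VWF at 0.43.

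The named genes highest in the difference of differences also held several with no common role. INTS8, a subunit of the Integrator complex, had 7.84 with LZTFL1 and TGFβ, 7.19 with LZTFL1, 7.43 with GFP and TGFβ and 8.26 with GFP (1.49). AATK, a kinase first described in apoptosis, was at 1.33, DNAH14, an axonemal dynein heavy chain, at 1.31, ZNF577, a zinc finger protein, at 1.27 and COG7, a subunit of a Golgi tethering complex, at 1.27. All 5 were lower with TGFβ in GFP cells and higher with it in LZTFL1-labelled cells, by under 1 each way. All but ZNF577 and INTS8 were below 7.3 on every array.

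At the low end stood MOCS2, a subunit of molybdopterin synthase, at 6.25 with LZTFL1 and TGFβ, 7.28 with LZTFL1, 7.27 with GFP and TGFβ and 6.78 with GFP (-1.52). CXCL14, a chemokine of normal epithelium, had 7.56 with TGFβ and 8.46 untreated in LZTFL1-labelled cells, and 9.27 with TGFβ and 8.71 untreated in GFP cells (-1.46), so the TGFβ-labelled array was the lowest with LZTFL1 and the highest with GFP. ORMDL2, a regulator of sphingolipid synthesis, had 6.00 with TGFβ and 6.29 untreated in LZTFL1-labelled cells, and 6.64 with TGFβ and 5.50 untreated in GFP cells (-1.43). In ORMDL2 most of the value came from the untreated GFP array, near the lowest value detected there (5.38). B3GNT2, which builds lactosamine chains, was at -1.43 and KIF5B, a kinesin motor, at -1.35 (6.50 with TGFβ and 8.02 untreated in LZTFL1-labelled cells, and 7.71 with TGFβ and 7.87 untreated in GFP cells). In KIF5B, B3GNT2, RNFT1 (-1.28), the nuclear lamina protein TMPO (-1.27) and the G protein subunit GNAQ (-1.25), the GFP arrays differed by at most 0.16 and the TGFβ-labelled LZTFL1 array was the lowest of the 4. GALK2, a galactosamine kinase, was at -1.40 (-0.01 for its other probe), PLEKHO1 at -1.23, SOSTDC1, a secreted antagonist of BMP and Wnt signalling, at -1.22 and NUDT6 at -1.22.

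Genes detected on 3 of the 4 arrays gave bounds. Of 1204 such probes, 526 were undetected with LZTFL1 and TGFβ, 91 with LZTFL1, 512 with GFP and TGFβ and 75 with GFP, so the missing array was mostly a TGFβ-labelled one. The undetected value was raised to the lowest detected value of its array, and 904 probes kept a value that can only understate the difference. Of the 681 whose gene had no passing probe, 18 were at 1 or more and 17 at -1 or less. GNG12, a G protein subunit, was at least 2.67-fold lower (5.12 undetected with LZTFL1 and TGFβ, 6.87 with LZTFL1, 7.14 with GFP and TGFβ, 6.91 with GFP). ANKRD1, a muscle ankyrin repeat protein that is also a YAP target, was at least 2.63-fold lower, at 5.60 undetected with LZTFL1 and TGFβ, 6.61 with LZTFL1, 6.56 with GFP and TGFβ and 6.10 with GFP. The other largest bounds below 0 were those of SLC30A6 (-1.36), SLC7A11, the cystine transporter (-1.27), and SLC35G1 (-1.24). Above 0, among named genes, they were those of GSTTP2 (1.49), TBC1D32 (1.40), CXorf38 (1.38), H2AC19 (1.29) and ACP2 (1.21).

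The only repeat measurement on these arrays was another probe of the same gene. In 1872 genes with 2 passing probes, the difference of differences of the 2 brightest correlated across genes with r = 0.176, against 0.683 for the summed TGFβ-label difference and 0.652 for the summed vector difference. The SD of the difference between the 2 probes was 0.488, larger than the SD of the brightest probe's value in the same genes (0.329). For the TGFβ-label and vector sums the probes differed about as much (SDs of 0.496 and 0.510). Those sums themselves varied more, with SDs of 0.608 and 0.592. Of 11 named genes past 1 with another passing probe, that probe had the same sign in 7 and was past 0.5 with the same sign in 2. These were SBDSP1, a pseudogene whose copy SBDS shares its sequence, at -1.10 and -0.95, and UBN2, a histone chaperone subunit, at 1.02 and 0.62. The other probe was past 1 in none of the 11. In ATP2C1 (-1.01 and 0.10), SNAP23 (-1.15 and 0.38), USP14 (1.02 and -0.07) and VWA8 (1.15 and -0.13) the 2 probes had opposite signs.

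Genes whose 2 probes were both past 0.5 were 70, of which 55 had the same sign and 15 opposite signs. Chosen after their values were seen, the farthest with 1 sign included MBNL2, a splicing regulator, at 1.00 and 1.02, FST at -0.87 and -1.19, UGT1A6, a glucuronosyltransferase that shares exons with its relatives, at -0.99 and -0.84, SPG21 at -0.82 and -1.11, TIAL1, an RNA-binding protein, at 0.79 and 1.02, and the peroxiredoxin PRDX3 at -0.96 and -0.72. MBNL2 read 8.37 with LZTFL1 and TGFβ, 7.70 with LZTFL1, 8.07 with GFP and TGFβ and 8.39 with GFP. UGT1A6 was bright, at 11.33 with TGFβ and 11.46 untreated in LZTFL1-labelled cells, and 11.64 with TGFβ and 10.77 untreated in GFP cells. The untreated GFP array was the low one.

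**Figure D4:**
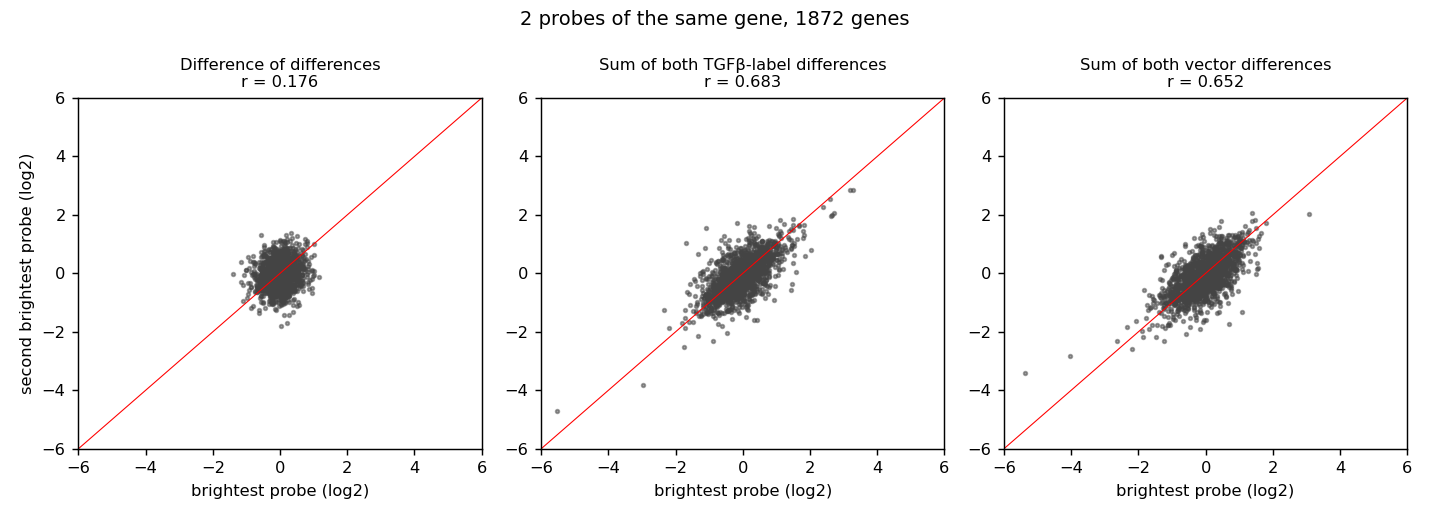
Values from the brightest (x axis) and the next brightest passing probe (y axis) of 1872 genes, in log2 units, for the difference of differences on the left and for the 2 sums of differences in the middle and on the right. The red line marks equal values. The cloud on the left is round (r = 0.176), and the other 2 are drawn out along the line (r = 0.683 and 0.652).

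Values past 1 were more frequent among dim genes. They made up 2.88% of 1599 features with a mean log2 value under 6.5, 1.54% of 3578 from 6.5 to 8, 0.588% of 3569 from 8 to 10 and 0.339% of 2065 over 10. The SD of the difference of differences was 0.450, 0.398, 0.330 and 0.273 in the same bins. The TGFβ-labelled arrays had fewer detected probes, 14232 with LZTFL1 and 14136 with GFP, against 16423 with LZTFL1 and 16067 with GFP untreated. Their median signals were lower too, at 117.5 with LZTFL1 and 104.5 with GFP, against 125.2 with LZTFL1 and 124.8 with GFP untreated. Of the genes described above, LTB, IL1A, PIM1, CXCL14 and FST had means over 8, and AKAP8L, AATK, MOCS2 and ORMDL2 means under 7. The part of dimness and of the detection gap in these values was not tested.

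**Figure D5:**
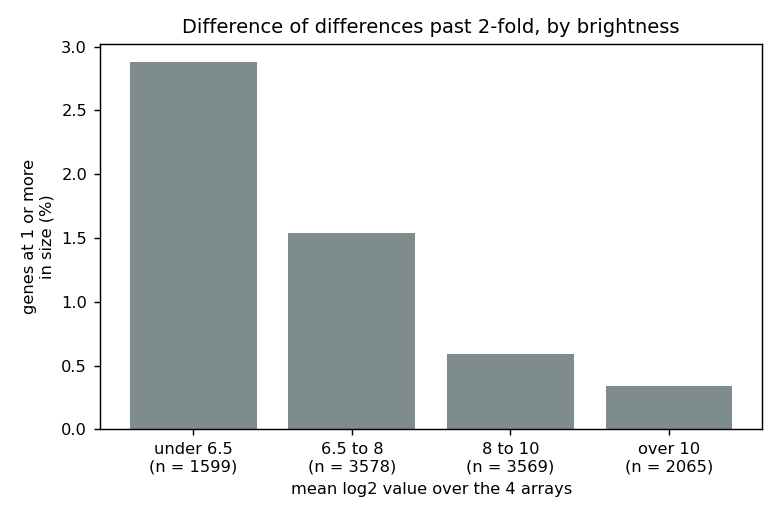
Share of features with a difference of differences of 1 or more in size (y axis, percent) in 4 bins of the mean log2 value over the HCC95 arrays (x axis), with the number of features in each bin. The share is 2.88% in the dimmest bin and 0.339% in the brightest.

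Among genes with a clear difference by TGFβ label, LZTFL1-labelled cells more often had the larger one. The 76 features whose 2 TGFβ-label differences summed to 2 or more in size included 58 higher and 18 lower with the label, and 56 (73.7%) had the larger difference in LZTFL1-labelled cells. The 58 higher ones had median differences of 1.45 with LZTFL1 and 1.18 with GFP, and 43 were larger with LZTFL1. The 18 lower ones had medians of -1.36 with LZTFL1 and -1.14 with GFP, and 13 were larger with LZTFL1. Besides genes given above, they included the secreted sclerostin SOST (1.36 with LZTFL1, 1.09 with GFP), the sodium channel subunit SCNN1A (1.46 with LZTFL1, 1.22 with GFP) and SAT1, which breaks down polyamines (1.79 with LZTFL1, 1.17 with GFP), all higher with the label. The matrix protein TNC (-1.37 with LZTFL1, -0.97 with GFP) and the ephrin EFNB2 (-1.34 with LZTFL1, -0.67 with GFP) were lower with it. CYP1B1 (1.44 with LZTFL1, 1.56 with GFP), MT1X, a metallothionein (1.32 with LZTFL1, 1.45 with GFP), and RAP1GAP, which switches off the GTPase RAP1 (1.10 with LZTFL1, 1.24 with GFP), had the larger difference in GFP cells. The TGFβ-label difference also varied more over all features with LZTFL1 (SD 0.382) than with GFP (SD 0.333), and each SD rests on 1 pair of arrays. It was past 1 in size for 176 features (1.63%) with LZTFL1 and 96 (0.888%) with GFP. Picking features by a large sum favours the pair with the wider spread. How many of all features had the larger difference in LZTFL1-labelled cells was not counted, so the 56 of 76 cannot be told apart from that spread.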

How the data were processed

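RNA from 6 cell groups was hybridised to Illumina HumanHT-12 v4 beadchips, 1 array per group, and 4 HCC95 arrays were compared. The authors deposited each probe's intensity without normalization and a detection p-value beside it, and separately a table of processed intensities. Per the submitters' processing notes the software was GenomeStudio 2011.1; no source used here gives its settings.

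The intensities of the 6 arrays were background-corrected with normexp from the detection p-values, given an offset of 16, quantile-normalized and set on the log2 scale (limma 3.58.1, R 4.3.3). The offset understates folds of dim genes. GEO's platform annotation gave 1 symbol for 30113 of 47323 probes (30074 matched by gene identifier), several for 8 and none for 17202. The brightest passing probe over the 4 arrays stood for its gene, and unnamed probes were only counted.

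No test was possible. The threshold was 1 on the log2 scale. Named genes were the 12 highest and 12 lowest past 1, the 2 farthest members of each of 24 lists, all inflammatory, TGF-β target and aryl hydrocarbon receptor members, and the 5 largest bounds each way. Other names are described as picked afterwards, or fill in a group or class. The comparison and lists were chosen with earlier results of these data known. Alternatives were other normalizations, background, offset, detection and probe rules and thresholds. The calculation was tested on simulated data with differences planted in bright probes, without array noise or normexp correction. That checks the arithmetic only and not the values of dim genes or single arrays. The number of arrays limits the precision. Promoters come from RefSeq (GRCh38.p14).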

Additional observations from a re-analysis of the deposited data

Results flagged for a closer look

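In 7 of the genes named, the TGFβ-label difference was at 0.5 or more in size in both vectors and went opposite ways. The difference was not tested, since each vector has 1 pair of arrays. Higher with TGFβ in LZTFL1-labelled cells and lower in GFP cells were INTS8 (difference of differences 1.49), AATK (1.33), CENPQ (1.28) and ZNF577 (1.27). Lower in LZTFL1-labelled cells and higher in GFP cells were CXCL14 (-1.46), GALK2 (-1.40) and NUDT6 (-1.22). Another GALK2 probe was at -0.01, and another AATK probe, detected on 2 of the 4 arrays, at -0.86. CXCL14 was the brightest of the 7.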

How the results depend on the processing

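Counts past 1 moved with the processing. From 69 higher and 60 lower, they became 242 and 20 with median scaling (64 and 74 from its own median), 4 and 4 with no background correction, 21 and 16 with an offset of 50, 123 and 110 with detection p under 0.05, 633 and 520 at 1.5-fold and 3 and 0 at 3-fold. With means over 8, chosen after seeing the data, they were 16 and 12. A list median was called moved past a bound of 0.345, an SD from probe disagreement, over the square root of the number of genes. This bound is not the spread of a list's members. Inflammation moved from 0.30 to 0.14 with no background correction and to 0.19 with the mean over probes. Mesenchymal genes moved from -0.20 to -0.0563 and -0.0739 in these settings, and to -0.0778 with the brightest probe over 6 arrays. Matrix proteases moved from -0.25 to -0.13, -0.0819 and -0.0857 in the same 3 settings. With the mean over probes, heat shock moved from -0.05 to -0.16 and hypoxia from -0.10 to -0.22. The medians of aryl hydrocarbon receptor, epithelial, IGF-binding, MAPK and S100 genes and line markers were near 0 and took either sign. The cause was not tested beyond what each alternative changes. Of 261 values of the 29 named genes past 1, 219 stayed past 1 and 0 changed sign. All settings reuse the same 4 arrays, and most of these genes were named for their extreme values there. Some settings can hardly change a value, such as the mean over probes for a gene with 1 passing probe. The counts thus describe the processing and not whether the values would repeat. LTB was at 0.97 with no background correction. Among genes with a clear difference by TGFβ label, the share with the larger one in LZTFL1-labelled cells ran from 71.4% to 75.0%. No paired analysis was possible because each group has 1 array. Signals near background limit the dim genes.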
